A study of Homo sapiens with 4 samples.

Results

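The 4 human genes SLCO5A1, PDE3A, ANKRD30BL and PID1 each held at least 1 region listed by an iCLIP study of the helicase MOV10. They had been proposed as hosts of segments that resemble ribosomal RNA. Members were the listed regions that overlap these genes on hg19, 9 of 1181 regions in all, with 3 in SLCO5A1, 1 in PDE3A, 3 in ANKRD30BL and 2 in PID1. The genes were chosen by read numbers and alignment scores of these same files, so those values are a description and carry no test in support of the choice. The cells were of the established line HEK293F, derived from human embryonic kidney. All 4 libraries came from UV-cross-linked cells. In each of 2 experiments, 1 library came from pull-down with an antibody to MOV10 and 1 from a control with a rabbit antibody to zebra finch FMRP, which gives 2 libraries per group. The deposited reads were 4021 for experiment 1 and 6032 for experiment 2, all inside listed regions, without a mark of whether MOV10 or control material gave the read. Every value below therefore holds for an experiment's file, which may mix MOV10 and control reads, and no region can be called bound by MOV10 from it. The experiments are the study's replicates, and any contrast of them below is one of replicates.

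Ribosomal RNA is made from tandem arrays of gene units, each read as 1 precursor from which the 18S, 5.8S and 28S RNAs are cut. Partial copies of these units lie elsewhere in the genome, some of them inside introns of other genes. Ribosomal RNA is the most abundant RNA of a cell and a common background in pull-downs of RNA-binding proteins. A short read from a repeated sequence can align almost equally well to several places, and an aligner gives such a read a low mapping quality. In iCLIP, reverse transcription tends to stop at the base linked to protein, which places that base next to where the read starts. The hosts have unrelated roles. SLCO5A1 belongs to the organic anion transporter family, PDE3A is a phosphodiesterase that breaks down cyclic AMP, PID1 is an adaptor with a phosphotyrosine interaction domain, and ANKRD30BL is a gene of the ankyrin repeat domain 30 family.

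The label was checked against gene annotation of GRCh38, a later build than that of the files, from which only names and nesting were taken. ANKRD30BL held 2 ribosomal entries in RefSeq, the 5.8S pseudogene RNA5-8SP5 and an 18S pseudogene with the synonym RNA18SP. The 28S pseudogene RNA28SP is the third RefSeq entry past the gene's 5' end. In GENCODE release 29, RNA5-8SP5 and the microRNA gene MIR663B lie on the strand of ANKRD30BL, and neither they nor the 18S pseudogene touch an exon of it. RNA5-8SP5 is shown beside the 5.8S RNA gene RNA5-8SN2, since it is a ribosomal copy annotated inside a host gene. Both are GENCODE release 29 transcripts, written 5' to 3' as DNA, and RNA5-8SP5 lies on the minus strand of chromosome 2. Capitals mark bases that differ between them or have no partner.
RNA5-8SP5: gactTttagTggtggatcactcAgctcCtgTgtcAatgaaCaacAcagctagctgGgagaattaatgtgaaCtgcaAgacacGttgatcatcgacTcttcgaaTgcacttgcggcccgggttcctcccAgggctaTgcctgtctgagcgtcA
RNA5-8SN2: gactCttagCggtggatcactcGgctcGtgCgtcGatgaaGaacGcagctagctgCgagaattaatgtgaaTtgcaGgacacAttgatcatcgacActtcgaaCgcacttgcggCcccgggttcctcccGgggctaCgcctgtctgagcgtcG
The 2 sequences were identical in 135 of 153 aligned columns (88.2%), with 17 mismatches and 1 gap. Whether reads of these files lie on RNA5-8SP5 was not tested, since no hg19 sequence or annotation was used.

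For SLCO5A1, PDE3A and PID1, RefSeq and GENCODE listed 0 ribosomal genes or pseudogenes inside the gene. Repeat annotation was not used here, so the label stands on annotation for ANKRD30BL alone. Likeness of the 9 regions to ribosomal RNA was not tested.

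Regions are numbered here from the 5' to the 3' end of their gene, with 1-based hg19 positions. In SLCO5A1 (chromosome 8, 70584568 to 70747299, minus strand), region 1 runs from 70602544 to 70602616, region 2 from 70602443 to 70602488 and region 3 from 70602300 to 70602430. The 3 regions lay within 317 nt of a gene of 162732 nt. In PDE3A (chromosome 12, 20522179 to 20837041, plus strand), the single region runs from 20704373 to 20704498. In ANKRD30BL (chromosome 2, 132905164 to 133015542, minus strand), region 1 runs from 133014526 to 133014598, region 2 from 133013126 to 133013174 and region 3 from 133012586 to 133012623, all within 2013 nt. In PID1 (chromosome 2, 229888689 to 230136001, minus strand), region 1 runs from 230045557 to 230045627 and region 2 from 230045490 to 230045537, within 138 nt. Thus the regions of a gene clustered in 1 short stretch in the 3 genes with several.

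Reads lay on the strand of the host gene in 9 of 9 regions, and no region held reads of both strands. The share of all regions on their host's strand was not determined, and the share of all regions with reads of both strands is not given here. Regions of a gene lie close together, so the 9 are not separate observations of strand. Exons and introns of hg19 were not analysed here, and exon lengths from GENCODE were used as a guide. The SLCO5A1 regions began 144683 to 144869 nt from the gene's 5' limit and ended 17732 to 17976 nt short of its 3' limit, farther than the longest exon block of 6280 nt. The PDE3A region lay 182194 nt from the 5' limit and 132543 nt from the 3' limit, against a longest exon block of 4352 nt. The PID1 regions lay 90374 and 90464 nt from the 5' limit and at least 156801 nt from the 3' limit, against 2135 nt. An exon block of these lengths at either limit would thus not reach the regions, and overlap with an internal exon was not tested. In ANKRD30BL the regions lay 944, 2368 and 2919 nt from the 5' limit, close to the gene's start, and exon lengths do not settle their place. Exons covered 5.95% of the span of SLCO5A1, 2.66% of PDE3A, 4.48% of ANKRD30BL and 0.800% of PID1 in GENCODE. There SLCO5A1 spans 168018 nt, PDE3A 315137 nt and PID1 420760 nt, each longer than in the limits used here.

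Together the 9 regions made up 0.762% of the list and held 231 reads of experiment 1 (5.74%, 95% exact Clopper-Pearson interval 5.05 to 6.51) and 599 of experiment 2 (9.93%, interval 9.19 to 10.7). Intervals here cover counting error only. The median member held 24 and 5 reads in the 2 experiments, and the median of all regions was 2 and 1. Reads with the same ends are counted once as a distinct fragment. By fragments the members held 92 of 1806 (5.09%) in experiment 1 and 81 of 1656 (4.89%) in experiment 2. The rise of the pooled members from experiment 1 to 2 was thus seen in reads and not in fragments. That rise rested on SLCO5A1 region 3. Without that region, the members held 5.15% of reads in experiment 1 and 0.995% in experiment 2. Their share of fragments was then 4.49% and 1.27%. Read names carry a number taken as the copies of a sequence. By summed copies the members held 3.92% and 10.3%.

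SLCO5A1 region 3 had the most reads of the whole list, with 24 in experiment 1 and 539 in experiment 2, which is 8.94% of that file. Its distinct fragments numbered 11 and 60 and its copies 27 and 8566. Experiment 2 was thus higher on each count, by different factors. Its most copied fragment held 66.8% of the copies of experiment 2, and 1 read alone stood for 2045 copies. Read names begin with 06, 07 or neither, for which no meaning is stated, and these 3 groups held 174, 191 and 174 of its reads in experiment 2. The other regions of the gene were small. Region 1 held 11 and 8 reads in 5 and 3 fragments, and region 2 held 1 read in each experiment, with 5' ends at 70602488 and 70602487.

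PDE3A region 1 ran the other way, with 80 reads in 36 fragments in experiment 1 and 36 reads in 11 fragments in experiment 2. No region of the list had more fragments in experiment 1. Its copies were 126 and 489, which is 0.763% and 0.555% of all copies of the experiments. In experiment 2 the 21-nt fragment from 20704415 to 20704435 held 471 copies in 21 reads, or 96.3% of the copies there. In experiment 1 the most copied fragment held 10.3%, so reads of that experiment were spread over the region.

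ANKRD30BL had few reads in experiment 2. Region 2 held 43 reads in 14 fragments in experiment 1 and 2 reads in 1 fragment in experiment 2. Region 3 held 33 reads in 5 fragments and 5 reads in 2 fragments. Region 1, the one nearest the gene's start, held 5 reads in each experiment, in 3 fragments and 1 fragment. In region 2 the fragment from 133013166 to 133013132 had 286 of the 320 copies of experiment 1 (89.4%). PID1 region 1 held 28 reads in 13 fragments in experiment 1 and 2 reads in 1 fragment in experiment 2. PID1 region 2 held 6 reads in 4 fragments and 1 read. In both genes, then, experiment 1 supplied most fragments.

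**Figure D1:**
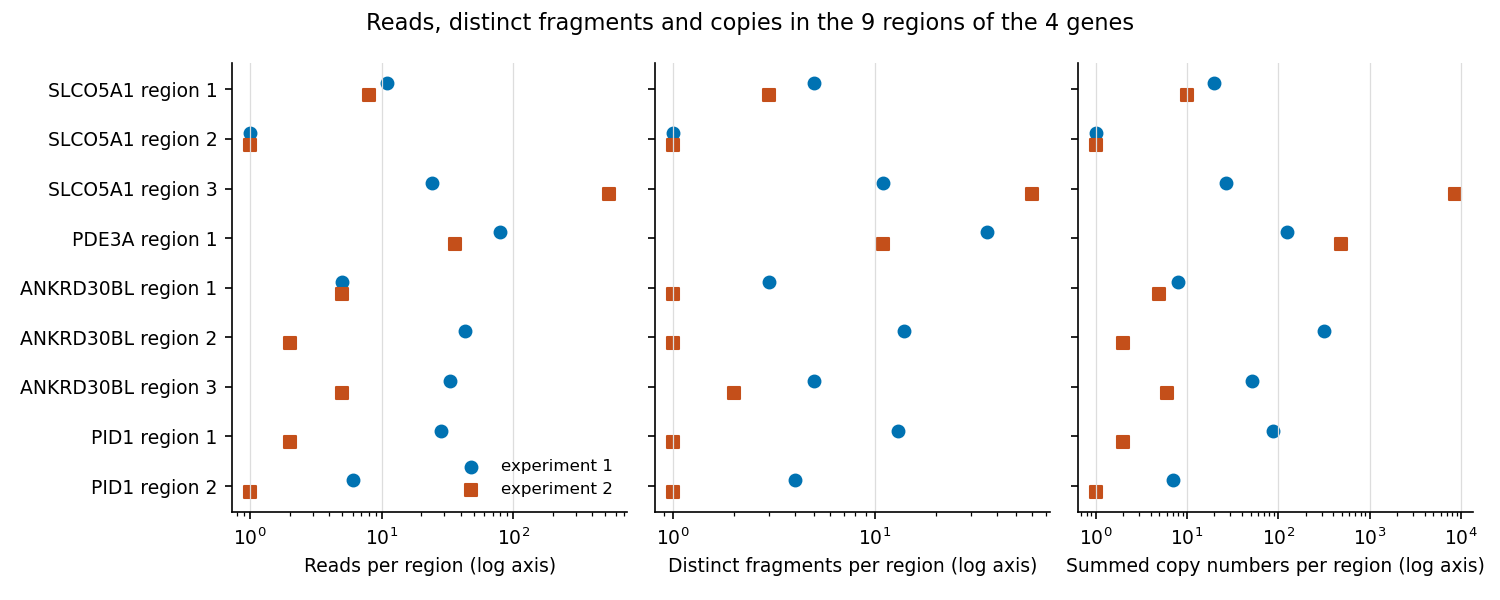
Reads, distinct fragments and summed copy numbers (log axes) in each of the 9 regions, with circles for experiment 1 and squares for experiment 2. SLCO5A1 region 3 reaches 539 reads and 8566 copies in experiment 2, whereas the PDE3A, ANKRD30BL and PID1 regions have more fragments in experiment 1.

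Shares of reads in the 2 experiments were compared by a two-sided Fisher's exact test, with Benjamini-Hochberg adjustment over 1181 regions and a threshold of 0.05. They differed in 5 of 9 members, against 4.57% of all regions. SLCO5A1 region 3 was higher in experiment 2, and PDE3A region 1, ANKRD30BL regions 2 and 3 and PID1 region 1 were higher in experiment 1. The log2 ratio of shares, experiment 2 over 1, was 3.90 for SLCO5A1 region 3, -1.74 for PDE3A region 1, -5.01 and -3.31 for ANKRD30BL regions 2 and 3, and -4.39 for PID1 region 1. By distinct fragments only SLCO5A1 region 3 passed, with a log2 ratio of 2.57, against 0.423% of all regions. Within the 3 groups of read names, 4 of 9 members passed in reads named 06 against 2.73% of all regions tested, 4 of 8 in reads named 07 against 2.45%, and 4 of 9 in reads with neither against 2.56%. SLCO5A1 region 3 was among them each time. Its same 55-nt fragment had reads of 1667, 1669 and 2045 copies in groups 06, 07 and neither. Whether the groups are independent was not tested, so passing in each is no repeated support. With the 20 regions of 50 or more reads left out, which takes away SLCO5A1 region 3 and PDE3A region 1, 3 of 7 members passed against 1.21% of all regions tested. The genes were chosen with these numbers known and a region with more reads passes more easily, so nothing is read from these counts.

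The deposited score of a read, a whole number from 0 to 70, was read as its mapping quality. In the members 124 of 231 reads scored under 30 in experiment 1 (53.7%, exact interval 47.0 to 60.2) and 320 of 599 in experiment 2 (53.4%, interval 49.3 to 57.5). In the other 1172 regions the shares were 12.4% and 15.1%. The top score of 70 was given to 14.3% and 1.17% of the members' reads, and to 60.8% and 51.5% of the reads elsewhere. The median score was under 30 in both experiments in 6 of 9 member regions, all those of SLCO5A1 and ANKRD30BL, and in 111 of all 1181 (9.40%). A region without any read at 70 in either experiment occurred in 5 of 9 members and 373 of 1181 regions (31.6%).

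The 4 genes did not score alike. In SLCO5A1, 31 of 36 reads of experiment 1 (86.1%, exact interval 70.5 to 95.3) and 288 of 548 of experiment 2 (52.6%, interval 48.3 to 56.8) were under 30. In ANKRD30BL, 64 of 81 (79.0%, interval 68.5 to 87.3) and 12 of 12 were under 30. PDE3A had 25 of 80 (31.3%, interval 21.3 to 42.6) and 20 of 36 (55.6%, interval 38.1 to 72.1). In PID1, 4 of 34 reads of experiment 1 (11.8%, interval 3.30 to 27.5) and 0 of 3 of experiment 2 were under 30. The PID1 share of experiment 1 lay beside the 12.4% of regions outside the 4 genes, and 13 of its 34 reads had the top score. Low scores thus made up most reads of SLCO5A1 and ANKRD30BL in both experiments and of PDE3A in experiment 2, and the interval of PID1 took in the level of other regions.

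These shares count each listed read once, and weighting reads by their copies, added after the data had been seen, moved them. In PDE3A, reads under 30 held 25.4% of the copies of experiment 1 and 6.34% of those of experiment 2, where 55.6% of reads were low. In SLCO5A1 they held 85.4% and 33.0% of copies, so most copies of experiment 2 scored 30 or more. In ANKRD30BL they held 93.4% of copies in experiment 1 and all 13 in experiment 2, and in PID1 4.26% and 0 of 3. In all members together, low reads held 66.6% and 31.6% of copies, against 4.60% and 1.92% in other regions. By copies and the limit of 30, then, low scores prevailed in both experiments in ANKRD30BL and in experiment 1 in SLCO5A1, and not in PDE3A. For PDE3A in experiment 2 this turns on the limit, since 445 of its 489 copies scored exactly 30. For SLCO5A1 in experiment 2 it rests on a single 55-nt fragment, whose reads at 52 held 5508 of 8577 copies.

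**Figure D2:**
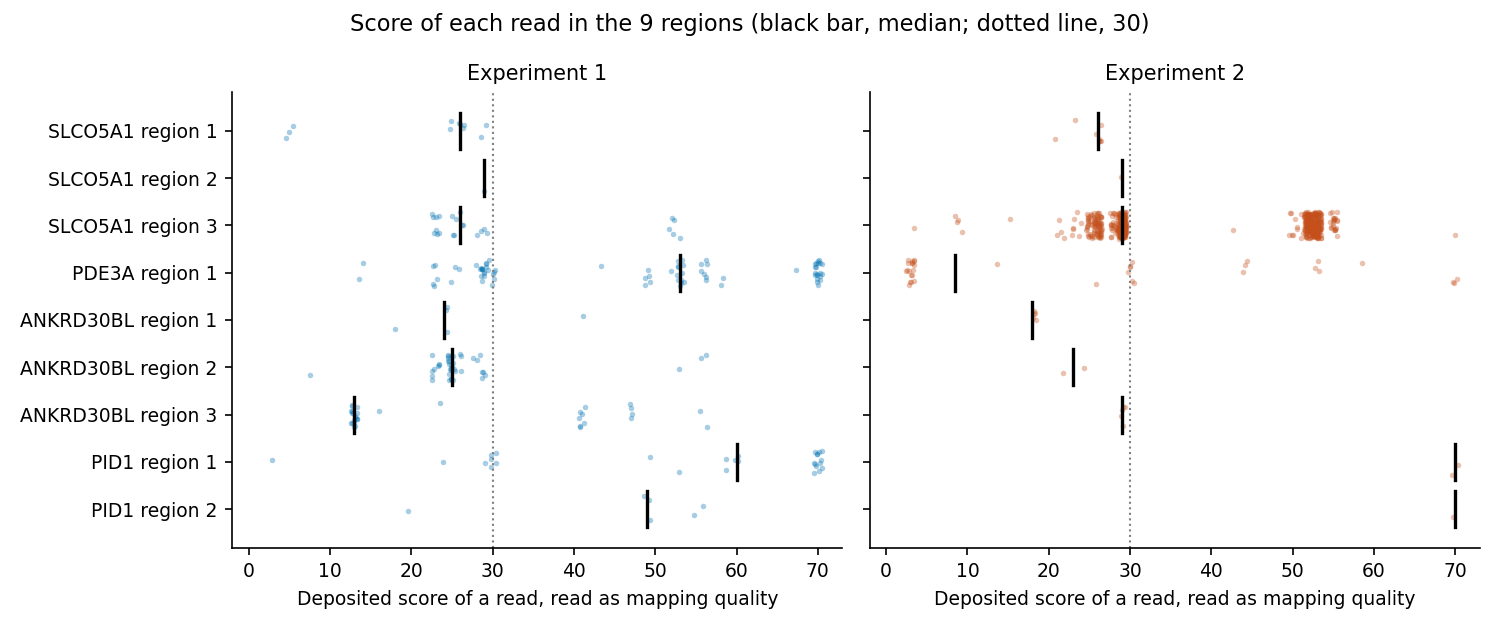
Deposited score of each read, taken as mapping quality, in the 9 regions, by experiment (points spread vertically and by up to 0.5 in score for visibility, black bars at medians, dotted line at 30). SLCO5A1 and ANKRD30BL medians lie under 30 in both experiments, and PID1 medians lie at 49 or higher.

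Short reads had low scores more often in other regions too, so scores were also set side by side within classes of read length, chosen after the data had been seen. In reads of 25 to 29 nt, 39 of 46 members' reads of experiment 1 were under 30 (84.8%, exact interval 71.1 to 93.7), against 16.1% elsewhere (interval 13.7 to 18.8). In experiment 2 it was 31 of 31, against 23.9%. In reads of 40 to 49 nt the shares were 48.3% (interval 29.4 to 67.5) and 5.62% in experiment 1, and 95.6% (interval 91.5 to 98.1) and 2.76% in experiment 2. In reads of up to 24 nt the intervals of members and other regions overlapped in experiment 1, at 55% (interval 31.5 to 76.9) and 46.4% (interval 41.0 to 51.9). Had members' reads been low as often as other reads of their length, 29.2 and 47.3 reads would have been under 30, against the 124 and 320 observed. The genes were chosen with these scores known, so this excess is a description and no test. It is also no value of each gene, since SLCO5A1 region 3 gave 19 and 279 of these low reads. PID1 gave 4 and 0. Without SLCO5A1 region 3 the shares at 40 to 49 nt were 28.6% of 21 reads in experiment 1 (interval 11.3 to 52.2) and 1 of 5 reads in experiment 2. The high share of experiment 2 in that class thus rests on that region. Of the 182 members' reads in that class, 126 were of 1 fragment of 48 nt. The interval counts each of them as a separate draw and may be too narrow.

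**Figure D3:**
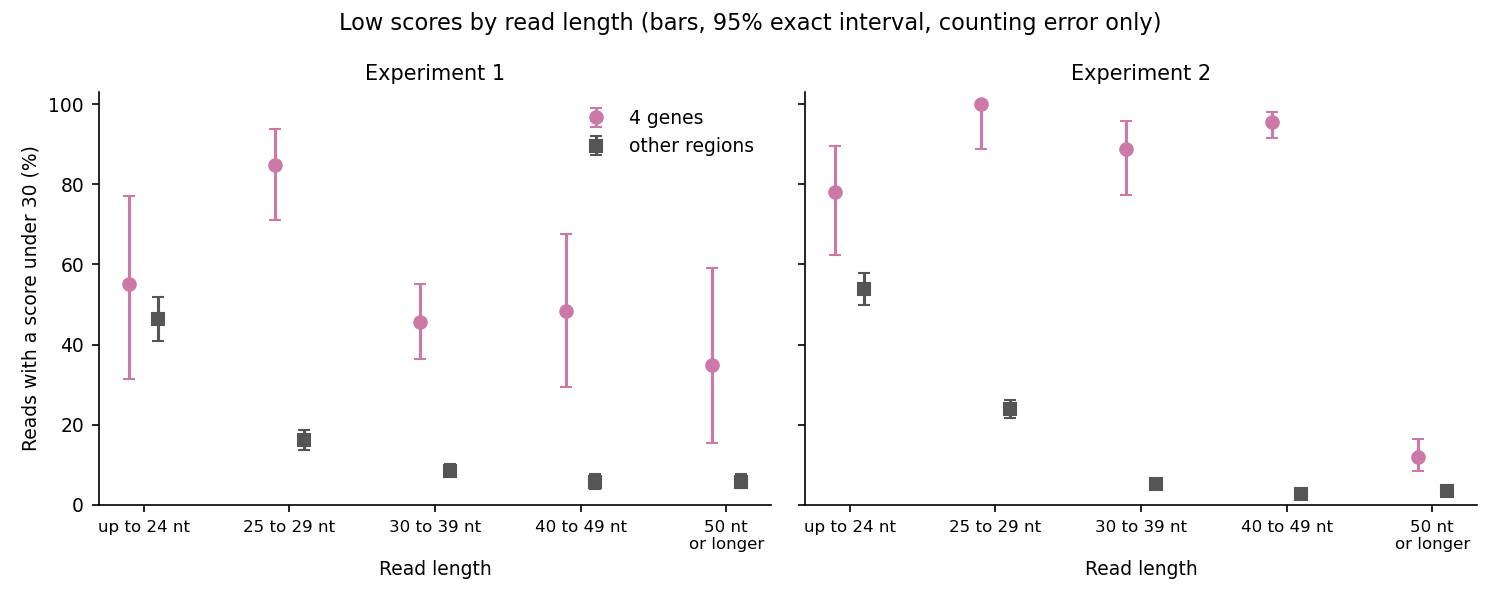
Share of reads with a score under 30 by read length, for the 9 regions of the 4 genes (circles) and the other 1172 regions (squares), with 95% exact intervals. In reads of 25 nt or longer the members lie above the other regions in every class of both experiments.

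Over all lengths, without SLCO5A1 region 3, 105 of 207 members' reads of experiment 1 (50.7%) and 41 of 60 of experiment 2 (68.3%) were under 30. Within that region, 518 of 539 reads of experiment 2 (96.1%) began at 2 bases 7 nt apart, 335 at 70602406 and 183 at 70602399. Reads from both bases mostly ended at 70602352. The 48-nt fragment from 70602399 had 126 reads, 2593 copies and a median score of 29. The 55-nt fragment from 70602406 had 245 reads, 5726 copies and a median score of 52. Fragments with the same 3' end and 5' ends 7 nt apart thus had a low and a middle score.

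The score of reads from 70602406 was higher in longer length classes. The 33 reads of 22 to 38 nt had a median of 26, the 23 reads of 39 to 46 nt a median of 29 and the 279 reads of 48 to 55 nt a median of 52 (interquartile range 52 to 53). These length classes were set after the scores had been seen. All 183 reads from 70602399 were under 30, and the longest of them was 48 nt. In experiment 1 the fragment from 70602407 to 70602352, 56 nt long, scored 52 in its 4 reads, and the fragment from 70602399 to 70602352 scored 29 in its 2 reads. The same 2 scores thus came back in both experiments. Some long reads were low as well, and 2 reads of 74 nt from 70602373 to 70602300 had a median of 25.5. Over the region, 16 of 16 reads under 49 nt were low in experiment 1 and 249 of 252 in experiment 2, against 3 of 8 and 30 of 287 longer reads. Only 1 of the region's 563 reads reached 70.

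**Figure D4:**
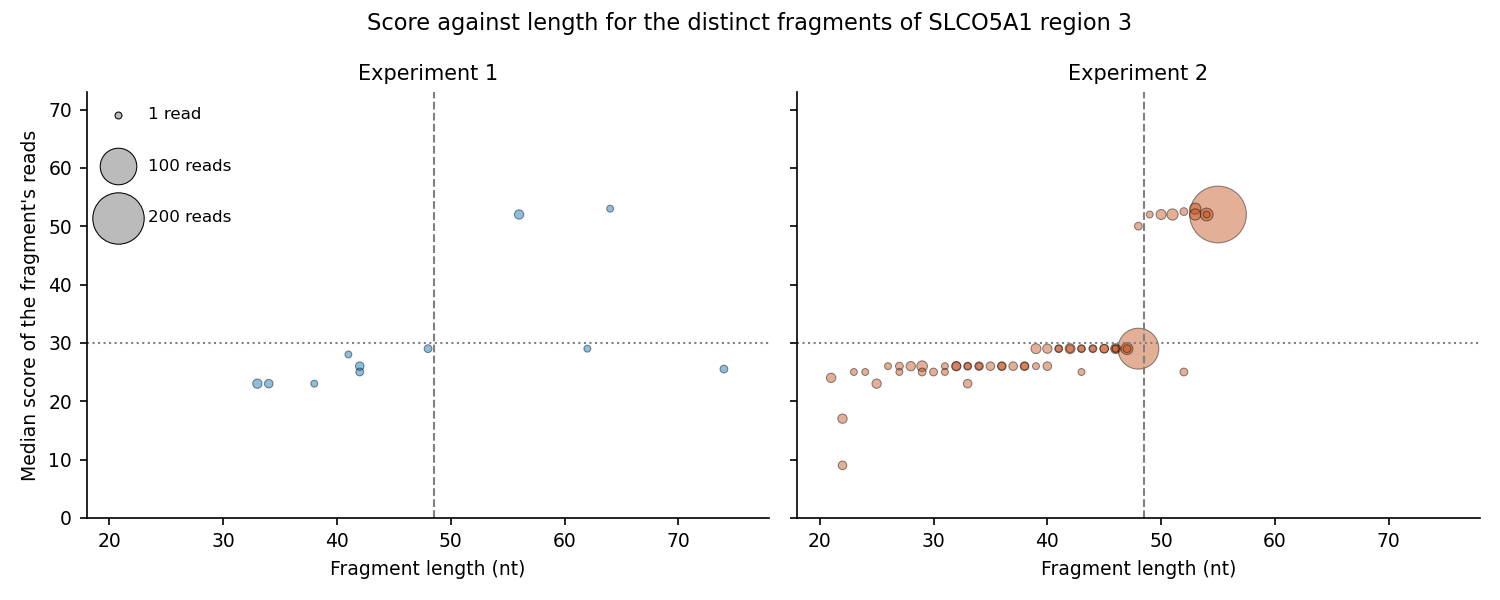
Median score against length for each distinct fragment of SLCO5A1 region 3, with point area growing with the number of reads (dotted line at a score of 30, dashed line between 48 and 49 nt). In experiment 2 the 2 most read fragments lie on either side of the dashed line, at 48 nt with a score of 29 and at 55 nt with a score of 52.

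In ANKRD30BL region 3, too, longer reads from 1 shared 5' end had higher scores in experiment 1. There, 32 of 33 reads began at 133012623. The 27-nt fragment had 19 reads and a median score of 13, the 32-nt fragment 7 reads at 41, the 33-nt fragment 4 reads at 47 and the 38-nt fragment 2 reads at 56. In experiment 2 the same 27-nt fragment scored 29 in its 4 reads, and the same 32-nt fragment scored 29 in its single read. Reads with the same ends thus scored differently in the 2 experiments, higher at 27 nt and lower at 32 nt in experiment 2. Read sequences are not among the columns of these files, so which bases differ was not tested. In ANKRD30BL region 2, reads of 41 to 49 nt still scored 25 or 26 in experiment 1, and 40 of 43 reads were under 30. In region 1, reads of 64 to 73 nt scored 18, 24 or 41 in experiment 1, and the 5 reads of 68 nt in experiment 2 all scored 18. Reads of 41 nt or longer in ANKRD30BL were thus under 30 but for the single 73-nt read at 41.

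In PDE3A both high and low scores were found at 1 shared 3' end. Fragments ending at 20704435 scored 49 in the 5 reads of the 24-nt fragment of experiment 1, 14 in the 2 reads of 22 nt there, and either 3 or 30 in the 21 reads of 21 nt of experiment 2. Of those 21 reads, 15 scored 3 and held 26 copies, and 6 scored 30 and held 445 copies. The 4 reads of 55 nt from 20704381 to 20704435 scored 70. Fragments that began at 20704419 to 20704421 and ended at 20704448 had 28 to 30 nt and scored 23, 29 and 30. Fragments with the same 3' end that began at 20704411 scored 70 in 3 reads. In experiment 2 the single fragment from 20704414 to 20704451 scored 70, as it did in experiment 1. High and low scores thus lay within the same 126 nt. The low median per read of experiment 2, 8.5 against 53 in experiment 1, went with short reads, with a median length of 21 nt against 35 nt.

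In PID1 region 1, the fragments of 42 and 43 nt that began at 230045599 or 230045600 scored 70 in each of their 7 reads of experiment 1. The 42-nt fragment from 230045599 to 230045558 was found in both experiments, with 2 reads at 70 in each. The most copied fragment of experiment 1, 31 nt from 230045595 to 230045565, had 59 copies in 7 reads. Of these, 3 reads with 17 to 19 copies each scored 60 and held 55 copies, and 4 reads of 1 copy each scored 30. PID1 region 2 scored a median of 49 in experiment 1, where 4 of its reads had 24 nt, and its 41-nt read of experiment 2 scored 70. Reads of PID1 longer than 40 nt thus had the top score.

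Fragments with nearly the same ends occurred in both experiments in 8 of 9 member regions, all but PID1 region 2, against 1019 of 1181 regions (86.3%). Such a pair shares its 3' end, and the 5' end of the fragment of experiment 2 is the same or 1 nt further downstream. Pairs 1 nt apart in the upstream direction were not counted, so no direction of shift can be read from these numbers. Over the members, 8 pairs had identical ends and 14 differed by that 1 nt. In SLCO5A1 region 3, the 56-nt fragment from 70602407 of experiment 1 and the 55-nt fragment from 70602406 of experiment 2 were such a pair. The most frequent 5' end of experiment 1 there was another, 70602384 with 6 of 24 reads. PDE3A region 1 had the most, with 1 identical pair and 6 pairs 1 nt apart. Only 21 of 92 and 18 of 81 member fragments had such a partner. The list is by its name limited to regions present in both experiments, so reads of both in a region are built in. The share of member regions with such pairs, 88.9%, lay near that of all regions, and nothing is read from it. Members differed from most regions in fragment number. A single fragment in each experiment was found in 1 of 9 members, SLCO5A1 region 2, and in 800 of 1181 regions (67.7%). At least 5 fragments were found in 6 of 9 members in experiment 1 and 2 of 9 in experiment 2, against 3.30% and 2.54% of all regions.

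Reads with the same ends did not always share a score. Of 49 member fragments with several reads in experiment 1, 13 carried more than 1 score, and of 53 in experiment 2, 20 did. In the 55-nt fragment of SLCO5A1 region 3 scores ran from 22 to 55. In the 27-nt fragment of ANKRD30BL region 2 from 133013158 to 133013132, they ran from 8 to 56 over 7 reads of experiment 1.

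Regions of similar read number, summed over both experiments, put these scores in context. Whether they, or other regions outside the 4 genes, lie on ribosomal copies was not tested. Next below SLCO5A1 region 3 in total reads was a region of chromosome 15 (99250937 to 99251000), with 276 and 155 reads and median scores of 49 and 70. Around PDE3A region 1 stood a region of chromosome X (73067600 to 73067636), with 1 and 119 reads and medians of 70 and 14, and a region of chromosome 5 (1318034 to 1318082), with 3 and 94 reads and medians of 61 and 70. Around ANKRD30BL region 2 stood a region of chromosome Y (10037759 to 10037813), with 3 and 43 reads and medians of 36 and 37. The other was a region of chromosome 1 (205684613 to 205684657), with 2 and 37 reads and medians of 70 and 9. Around PID1 region 1, both regions, of chromosome 17 (47131109 to 47131202) and chromosome 16 (588679 to 588770), had medians of 70 in each experiment. Read-rich regions outside the 4 genes could thus have low medians in 1 experiment, but none of these 7 was under 30 in both. The medians of experiment 1 in the regions of chromosomes X, 5, Y and 1 rest on at most 3 reads each. Among all 1172 regions outside the 4 genes, 105 (8.96%) had medians under 30 in both experiments.

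A single region lay within 50000 nt of a host gene without overlapping it. It ran from 133038143 to 133038177 on the minus strand of chromosome 2, 22601 nt past the 5' limit of ANKRD30BL. It held 2 reads in experiment 1, scored 0 and 53, and 1 read in experiment 2, scored 14. Of its 3 reads, 2 were thus under 30. Its relation to RNA28SP, which lies on that side of the gene in GRCh38, was not tested.

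Whether these reads come from ribosomal RNA, from a host transcript or from RNA made at the genomic copy was not tested.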

How the data were processed

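The build hg19 and the tools Novoalign, bedtools, SAMtools and CASAVA 1.8.2 are named per the submitters' processing notes. The sources used here do not give their order, how regions were called or how control reads were used. The authors deposited 2 lists of reads, 1 for each experiment, with a score from 0 to 70 per read, and 1 list of regions, whose values are positions and no measurement. The name of the region list says that the regions were present in both experiments. Reading lines as aligned reads of 17 to 91 nt, scores as mapping quality and the number before the rank in a name as copies is an inference from the values. Lists are tied to both pull-downs, so enrichment over control was not tested.

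Each read was put in the region it overlaps. Gene limits on hg19 were those of the rule that defined the members. Fragments are reads with the same ends and strand. A score under 30 was called low. Shares carry exact Clopper-Pearson intervals of 95%, and shares of reads between experiments were compared by Fisher's exact test with Benjamini-Hochberg adjustment over all regions. That test was tested on simulated data, in which reads were drawn independently. Where no share changed, 0 of 1181 regions were called. Where shares were exchanged, 16 of 174 changed regions were recovered. Of those changed at least 8-fold with at least 20 expected reads, 7 of 8 were recovered. The p-values of the test may be too small, and the intervals of shares too narrow, since reads can be copies of a molecule. Nothing says how far the experiments are separate cultures. The rule for naming regions took all member regions, those within 50000 nt of a member gene and those next above and below the most read region of each gene. Alternatives changed the unit counted, the score limit, the read-name group, the limits of the genes and the regions kept. Members, lists and alternatives were chosen with earlier results of these data known. RNA5-8SP5 and RNA5-8SN2 were aligned globally with Biopython 1.88. Tests ran in scipy 1.17.1, tables in pandas 2.3.3 with numpy 2.4.6 and figures in matplotlib 3.10.9, under Python 3.11.15.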

Additional observations from a re-analysis of the deposited data

How the results depend on the processing

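The members held 3.92% of experiment 1 by summed copies and 3.12% with reads scored 30 or more, against 5.74%. In experiment 2 they held 4.89% by distinct fragments and 5.70% with reads scored 30 or more, against 9.93%. The share of low scores was 11.7% and 5.01% in the 2 experiments when low meant under 20, and 84.0% and 98.8% when it meant under 60. The direction of these shifts follows by construction, and their size does not. Most low scores of members thus lay from 20 to 29, just under the limit of 30. In experiment 2 the fragment of SLCO5A1 region 3 from 70602399 to 70602352 alone had 93 reads at 29. The shares of other regions under 20 or 60 were not determined, so whether the members' excess holds there was not tested. With reads weighted by copies, added after the data had been seen, the share of scores under 30 was 66.6% and 31.6%. It was 45.9% in experiment 1 in reads named 06, where the cause was not tested. In experiment 2 it was 76.5% by distinct fragments, which count each once, and 68.3% without SLCO5A1 region 3. The number of regions in the 4 genes was 9, and 4 with a read scored 30 or more in both experiments. It was 9 to 10 without replicate 1 or 2, when regions were merged anew from the reads of the other experiment. All listed reads lie in regions listed as present in both experiments, so a number near 9 follows by construction. Regions that differed in share numbered 5 of 9 by reads, against 4.57% of all regions, and 1 of 9 by distinct fragments, against 0.423%. They were 3 of 7, against 1.21% of all regions tested, after 20 regions with at least 50 reads had been left out. Those 20 included SLCO5A1 region 3 and PDE3A region 1. Log2 ratios of shares turned in regions that had not passed. ANKRD30BL region 1 went from -0.59 to 0.49 without read-rich regions and to 0.29 in reads named 07, SLCO5A1 region 1 from -1.04 to 0.032 without read-rich regions, and SLCO5A1 region 2 from -0.59 to 0.13 by fragments and 0.49 without read-rich regions. Copies were not tested, since copies of a molecule are not independent. No paired analysis was possible because no read can be assigned to MOV10 or control. The few reads of ANKRD30BL and PID1 in experiment 2 limit what can be seen there.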
